A study of Sus scrofa with 6 samples.

Results

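The genes described here are the RAB and ARF GTPases, the SEC proteins, the coatomer subunits, the sorting nexins (SNX), the syntaxins (STX) and the VPS proteins, which carry membrane and cargo between the compartments of a cell. The rule goes by symbol alone: it takes every gene on the array whose single annotated symbol began with VPS, SNX or STX, with RAB, ARF or SEC and a digit, or with COPA, COPB, COPE, COPG or COPZ. This gave 103 genes of 6765 with a single symbol. The 103 genes had 160 probe sets, with more than 1 for 43 genes, and each gene was read from the probe set with the highest mean log2 signal over the 6 arrays. Some members carry the symbol without a known role in traffic: VPS72 encodes a subunit of a chromatin remodelling complex, and SEC14L1 and SEC14L2 encode lipid-binding proteins.

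Proteins bound for secretion or for membranes enter the endoplasmic reticulum (ER) through the SEC61 translocon, leave it in vesicles coated with COPII, and are retrieved from the Golgi in vesicles coated with coatomer (COPI). RAB and ARF GTPases mark each compartment and recruit its coats and tethers, syntaxins are SNARE proteins that fuse a carrier with its target, and sorting nexins and VPS complexes sort cargo at endosomes or pass it on to lysosomes. In oocytes and cleaving embryos the same machinery discharges the cortical granules, turns over maternal membrane proteins and supplies membrane to the new cell boundary.

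The study addresses the action of DJ-1, a protein that senses oxidants, in pig embryos made by nuclear transfer, in which the nucleus of a cultured cell is placed in an oocyte. Anti-DJ1 embryos were nuclear transfer embryos injected with an antibody against DJ-1 (2 arrays), IgG embryos were injected with control immunoglobulin (2 arrays), and non-injected embryos were transferred only (1 array). Donor cells were the cultured fibroblasts of an adult Meishan pig that supplied all the nuclei (1 array), and the oocytes came from a slaughterhouse. Each embryo array held a pool of 23 to 26 embryos at 28 h after transfer, when many had just reached the 2-cell stage. Trial 1 held 1 array of each group. For trial 2, new and biologically different pools of both injected kinds were made. Below, a pair of values for anti-DJ1 or IgG embryos gives trial 1 and then trial 2.

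The deposited values are MAS5 signal intensities, scaled to a trimmed mean of 499.8 to 499.9 on all 6 arrays. The array's synthetic Tag controls reached 21.4 to 47.0 at their highest on each array and served as the level of background. The 7 oocyte and early embryo markers summed to 54892 to 70049.7 in embryos and 166 in donor cells, and the 8 fibroblast markers to 1586 to 1935 in embryos and 65150 in donor cells, with 1 of them, DCN, higher in embryos. The 8 cumulus and granulosa markers summed to 1621 to 2239 in embryos and 12885 in donor cells. Of the 4 tested, FST and INHBA were called higher in embryos (log2 change 3.71 and 0.71), KRT8 lower (-6.86) and INHA in neither direction. The 4 smooth muscle markers summed to 414 to 737 in embryos and 2280 in donor cells, and of the 3 tested DES was called higher in embryos (3.98) and ACTA2 and TAGLN lower (-4.96 and -5.54). The 3′ to 5′ signal ratio of the EF1A transcript, a sign of RNA length, was 24.2 and 8.20 in anti-DJ1, 23.9 and 9.34 in IgG and 30.0 in non-injected embryos, against 4.23 in donor cells. The trial 2 embryo arrays and the donor array thus had lower ratios than the trial 1 embryo arrays, and the part of this in the differences below was not tested.

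Nearly all of the 103 members passed the filter on low values, though traffic genes without a single annotated symbol on the array are not among them. Of the 103 members, 85 lay above the highest Tag control on all 6 arrays and 101 did so in donor cells. A total of 98 passed the filter on low values (95.1%), against 5217 of the 6765 genes with a single symbol (77.1%). The filter took the mean over all 6 arrays, so a gene dim in embryos could pass through its donor signal. For RAB3D and COPZ2 the embryo mean signals, 34.2 and 38.5, lay under 39.6, the lowest mean of a tested probe set. For such genes a call lower in embryos is not independent of the filter. The 5 members left untested were COPB2, RAB26, SNX21, STX16 and VPS33A. For VPS33A, a fusion factor of late endosomes, the signal was 5.44 and 9.24 in anti-DJ1, 34.2 and 2.47 in IgG and 4.69 in non-injected embryos, against 311 in donor cells. Only the donor array and the trial 1 IgG array were above background for that gene.

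The comparison of embryos with donor cells asks which traffic transcripts of the donor cell type and of the oocyte differ at the 2-cell stage. Of the 98 tested members, 68 differed (69.4%), 32 higher (32.7%) and 36 lower (36.7%) in embryos, in limma's test with an adjusted p threshold of 0.05. Among all 14399 probe sets tested the share was 72.9%, with 36.4% higher and 36.5% lower, so the members were called at close to the background rate. Without the trial block 36 of the 68 remained called (16 higher and 20 lower). Leaving out an injected array, which also drops the block, gave 35 to 39 calls. The shares of all probe sets in these fits are not given, so the loss cannot be read as a trait of the members. At least 2-fold, 19 members were higher and 28 lower in embryos, against 30.3% and 31.5% of all probe sets tested. At least 4-fold, 4 members were called higher (4.08%) and 17 lower (17.3%), against 18.6% and 19.7% of all probe sets tested. The median absolute log2 change was 0.97 for members and 1.48 for all probe sets tested. Donor cells were 1 array, taken to vary like the replicated groups, and each change was fitted at the level of trial 1. In RNA from pools, fewer cells of a type and less RNA per cell cannot be told apart.

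The balance of higher and lower members depended on how the arrays were scaled. The called members split 32 higher to 36 lower as deposited (47.1% higher), 32 to 33 after quantile normalization (49.2%) and 48 to 25 after scaling to a common 75th percentile (65.8%). Of all probe sets tested, 43.4% were called higher and 29.3% lower after quantile normalization, and 46.6% higher and 27.2% lower at the common percentile. Those scalings moved the median log2 change of all probe sets tested by 0.44 and 0.62, and the members' median was -0.15 as deposited, 0.14 after quantile normalization and 0.48 at the common percentile, against -0.02, 0.42 and 0.59 for all probe sets. Across settings, 51 members were called the same way under all 3 scalings, 27 higher and 24 lower in embryos, and no member was called in opposite directions. These were 52.0% of the members tested, 27.6% higher and 24.5% lower, against 62.2%, 35.9% and 26.4% of all probe sets tested. Of these, 45 were also called with the non-injected embryos alone, without them, and with the trial 2 embryos alone (24 higher and 21 lower). The share of all probe sets under those settings is not given, so the 45 cannot be read as a trait of the members. Counts given below as holding under every scaling are taken from the 51.

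**Figure D1:**
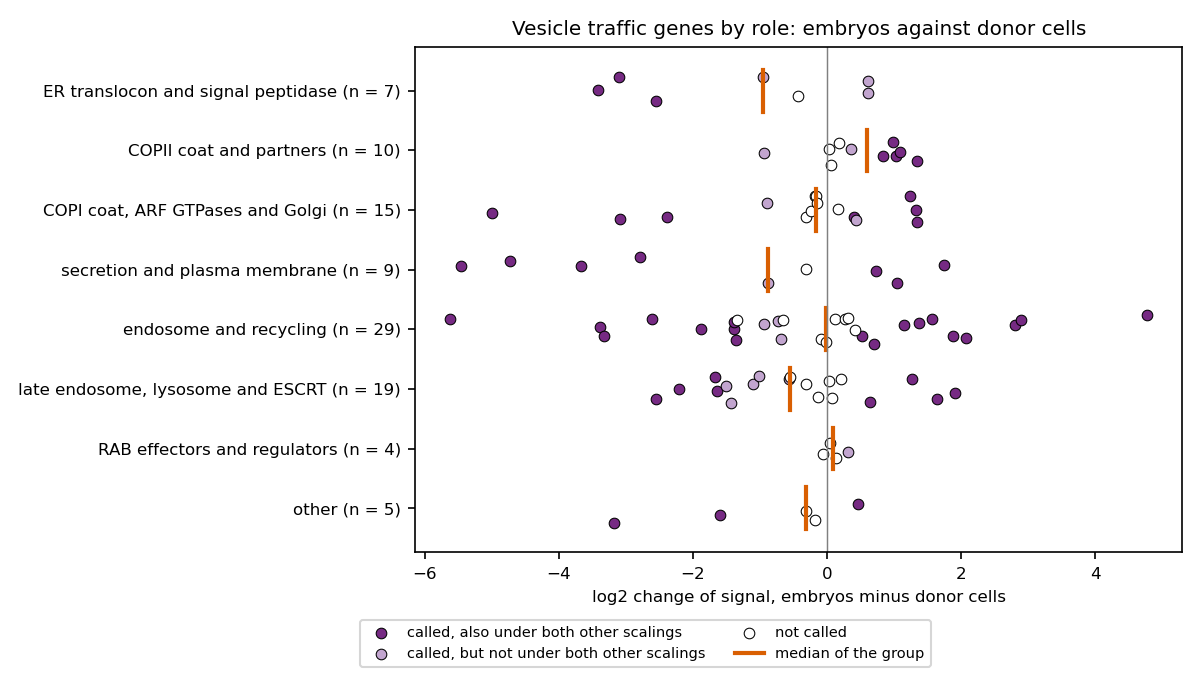
Log2 change of signal, embryos minus donor cells (horizontal axis), for the 98 tested members in 8 role groups (rows), 1 point per gene, with the median of each group as an orange bar. Dark points were called under all 3 scalings (27 higher, 24 lower in embryos). Pale points were called as deposited but not under both other scalings, and white points were not called as deposited. COPII genes lie mostly right of 0, and the 3 dark points of the ER translocon group all lie left of it.

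Genes of entry into the ER were called in both directions. Of the 7 translocon and signal peptidase genes tested, 4 were lower in embryos, 2 higher and 1 not called, against 36.5% lower and 36.4% higher of all probe sets tested. Under every scaling 3 were lower and none higher, against 26.4% and 35.9% of all probe sets tested. SEC61G, the gamma subunit of the translocon channel, had a signal of 313 and 298 in anti-DJ1, 428 and 134 in IgG and 574 in non-injected embryos, against 4599 in donor cells. All 5 embryo arrays lay far below donor cells (-3.42 ± 0.33, adjusted p = 1.14e-06, as log2 change with the standard error of the fit, as in the sentences that follow). SEC63, which works with SEC62 in translocation after synthesis, gave 814 and 680.0 in anti-DJ1, 865 and 622 in IgG and 535 in non-injected embryos, against 6226 in donor cells (-3.10 ± 0.17, adjusted p = 4.91e-09). Its other tested probe sets changed less, 1 of them called lower (-0.68 ± 0.24, adjusted p = 0.0234) and 1 not called (-0.33 ± 0.46, adjusted p = 0.535). SEC11C, one of a pair of catalytic subunits of the signal peptidase, gave 214 and 234 in anti-DJ1, 280.2 and 295 in IgG and 298 in non-injected embryos, against 1554 in donor cells (-2.55 ± 0.21, adjusted p = 3.22e-07). The embryo arrays did not overlap donor cells for SEC63, by the chosen probe set, or for SEC11C, as the rule that named them required. SEC62 was lower as deposited (-0.96), but this call was not held under every scaling.

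The other subunits of the same machines did not share that size of change. SEC61B, the beta subunit, had a signal of 6059.5 and 5136 in anti-DJ1, 5901 and 5388 in IgG and 8414 in non-injected embryos, against 4380.1 in donor cells, with every embryo array above donor cells (0.61 ± 0.12, adjusted p = 0.000598). SEC11A, the other catalytic subunit, gave 15811 and 10364 in anti-DJ1, 16355 and 10416 in IgG and 20690.2 in non-injected embryos, against 11399.5 in donor cells, and the trial 2 arrays fell below donor cells while the trial 1 arrays were above (0.62 ± 0.11, adjusted p = 0.000242). Neither call held under every scaling. The channel subunit SEC61A1 was not called (-0.44 ± 0.21, adjusted p = 0.0733).

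COPII, the coat of vesicles that leave the ER, had members called in both directions as deposited. Of its 10 tested genes 6 were higher in embryos, 1 lower and 3 not called, against 36.4% higher and 36.5% lower of all probe sets tested. Under every scaling 5 were higher and none lower, against 35.9% and 26.4% of all probe sets tested. SEC23A, an inner coat subunit, had a signal of 10154 and 8352 in anti-DJ1, 9406 and 7796 in IgG and 9942 in non-injected embryos, against 4639 in donor cells (1.08 ± 0.12, adjusted p = 2.89e-06), and its relative SEC23B gave 1843 and 2699.7 in anti-DJ1, 1961 and 3006 in IgG and 1742 in non-injected embryos, against 1037 in donor cells (0.83 ± 0.14, adjusted p = 0.000188). SEC24D, the partner that selects cargo, gave 1629 and 1879 in anti-DJ1, 1423 and 1822 in IgG and 1428 in non-injected embryos, against 749 in donor cells (0.99 ± 0.15, adjusted p = 7.88e-05). For these 3 genes every embryo array was above donor cells. SEC13, an outer coat subunit that also belongs to the nuclear pore, gave 202 and 699 in anti-DJ1, 199 and 687 in IgG and 248 in non-injected embryos, against 103 in donor cells (1.03 ± 0.23, adjusted p = 0.00146), and its trial 2 arrays were well above its trial 1 arrays. SEC22C, an ER protein related to SNAREs, gave 457 and 636 in anti-DJ1, 412 and 588 in IgG and 259.5 in non-injected embryos, against 142 in donor cells (1.34 ± 0.21, adjusted p = 9.54e-05).

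The outer coat was not uniformly higher. SEC31A, the partner of SEC13, had a signal of 3197 and 3109 in anti-DJ1, 3294 and 3248 in IgG and 3399 in non-injected embryos, against 6296 in donor cells, so all embryo arrays were lower (-0.93 ± 0.13, adjusted p = 2.87e-05). That call was lost at the common 75th percentile. SEC24C, SEC31B and RAB1A, the GTPase of ER to Golgi transport, were not called, with log2 changes of 0.03, 0.18 and 0.07.

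Coatomer subunits and ARF GTPases, which act between the Golgi and the ER, went both ways. Of 15 tested genes of the COPI, ARF and Golgi group 5 were higher, 4 lower and 6 not called, against 36.4% higher and 36.5% lower of all probe sets tested. Under every scaling 4 were higher and 3 lower, against 35.9% and 26.4% of all probe sets tested. The zeta subunits of coatomer were lower in embryos: COPZ1 had a signal of 278 and 498 in anti-DJ1, 259 and 568 in IgG and 375 in non-injected embryos, against 1585 in donor cells (-2.38 ± 0.20, adjusted p = 3.42e-07), and COPZ2 gave 31.6 and 16.3 in anti-DJ1, 26.4 and 41.2 in IgG and 76.9 in non-injected embryos, against 377 in donor cells (-3.08 ± 0.58, adjusted p = 0.000394). COPZ2 passed the filter on low values only through its donor signal. On 3 of the 5 embryo arrays COPZ2 was under the highest Tag control. With those arrays set to that level, the embryo mean of log2 signals was at least 9.10-fold below donor cells, though the non-injected array lay nearer. Of the gamma subunits, COPG2 was higher, with 4352 and 2804 in anti-DJ1, 4259 and 2433 in IgG and 6424 in non-injected embryos, against 1959.6 in donor cells (1.33 ± 0.13, adjusted p = 1.6e-06). COPG1 was not called (-0.31 ± 0.19, adjusted p = 0.151). The alpha subunit COPA was not called either (-0.16), and the beta subunit COPB1 had embryo arrays on both sides of donor cells (0.43 ± 0.11, adjusted p = 0.005).

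ARF2, a GTPase of the class that recruits coatomer, depended on the probe set. The brighter probe set gave 45.0 and 39.4 in anti-DJ1, 42.7 and 42.0 in IgG and 41.0 in non-injected embryos, against 1503 in donor cells, called lower in embryos (-4.99 ± 0.42, adjusted p = 3.09e-07). On 3 of the 5 embryo arrays it was under the highest Tag control. With those arrays set to that level, the embryo mean of log2 signals was at least 34.2-fold below donor cells. The second tested probe set was not called (-0.93 ± 0.47, adjusted p = 0.0975). ARF5, of another class of Golgi ARFs, was higher in embryos, with 483 and 653 in anti-DJ1, 446 and 631 in IgG and 559 in non-injected embryos, against 207 in donor cells (1.23 ± 0.20, adjusted p = 0.000107), and ARF1, the ARF best known for coatomer recruitment, gave 2198 and 5321 in anti-DJ1, 2712 and 5385 in IgG and 2459 in non-injected embryos, against 1844 in donor cells (0.41 ± 0.14, adjusted p = 0.0197). ARF4, a further Golgi ARF, was not called (0.17 ± 0.11, adjusted p = 0.19). VPS52, a subunit of a complex that tethers endosome-derived carriers at the Golgi, was higher in embryos (1986 to 3058 in embryos, against 884 in donor cells, 1.33 ± 0.14, adjusted p = 3.1e-06). Its other tested probe sets gave 3.13 ± 0.75 (called higher, adjusted p = 0.00229) and 0.18 ± 0.62 (not called, adjusted p = 0.812).

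Genes of secretion and the plasma membrane were called in both directions. Of 9 tested genes 3 were higher, 5 lower and 1 not called, against 36.4% higher and 36.5% lower of all probe sets tested. Under every scaling 3 were higher and 4 lower, against 35.9% and 26.4% of all probe sets tested. RAB3D, a GTPase of secretory granules in exocrine cells, had a signal of 10.2 and 21.4 in anti-DJ1, 68.0 and 15.4 in IgG and 55.8 in non-injected embryos, against 1765 in donor cells. All 5 embryo arrays were far below donor cells (-5.46 ± 0.67, adjusted p = 1.11e-05). Since 3 of them were under the highest Tag control, the size is given as a bound on the embryo mean of log2 signals. With those arrays set to that level, the mean was at least 37.6-fold below donor cells, and the trial 1 IgG array, at 68.0, lay nearer. STX11, a syntaxin of granule release in immune cells, gave 62.1 and 55.3 in anti-DJ1, 77.3 and 77.7 in IgG and 23.0 in non-injected embryos, against 1410.3 in donor cells (-4.73 ± 0.37, adjusted p = 1.75e-07; at least 22.5-fold with the non-injected array set to its Tag level). RAB13, a GTPase of junction and surface traffic, gave 220.2 and 418 in anti-DJ1, 266 and 266 in IgG and 332 in non-injected embryos, against 3459 in donor cells (-3.66 ± 0.25, adjusted p = 4.96e-08). RAB34, which acts at the Golgi and in cilium formation, was lower as well (73.6 to 97.9 in embryos, against 607 in donor cells, -2.79 ± 0.33, adjusted p = 7.44e-06). The embryo and donor arrays did not overlap for RAB3D, STX11, RAB13 or RAB34, as the rule that named them required. RAB3D passed the filter on low values only through its donor signal.

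In the other direction, RAB3A, the GTPase of regulated exocytosis at synapses, had a signal of 294 and 369 in anti-DJ1, 195 and 268 in IgG and 301 in non-injected embryos, against 74.3 in donor cells (1.74 ± 0.25, adjusted p = 4.63e-05). RAB10, which carries membrane from the Golgi to the surface, gave 11715 and 9687 in anti-DJ1, 13739.6 and 10765 in IgG and 14212 in non-injected embryos, against 7981 in donor cells (0.72 ± 0.11, adjusted p = 8.17e-05). RAB27B, another GTPase of granule secretion, was also higher (81.4 to 132 in embryos, against 46.6 in donor cells; 1.05 ± 0.39, adjusted p = 0.0275). Every embryo array was above donor cells for these 3 genes by the chosen probe sets. The other tested probe sets of RAB10 gave 2.90 (called higher), 0.18 and 0.44 (both not called).

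Endosome and recycling genes formed the most numerous group and held the extremes in both directions. Of 29 tested genes 10 were higher, 11 lower and 8 not called, against 36.4% higher and 36.5% lower of all probe sets tested. Under every scaling 10 were higher and 8 lower, against 35.9% and 26.4% of all probe sets tested. STX6, a syntaxin of traffic between endosomes and the trans-Golgi network, had a signal of 10049 and 10462 in anti-DJ1, 10362 and 12146 in IgG and 12794 in non-injected embryos, against 398 in donor cells. The embryo arrays were close together and 27.3-fold above donor cells in the fit (4.77 ± 0.12, adjusted p = 6.9e-12). SNX22, a sorting nexin with a lipid-binding PX domain, gave 78.6 and 152 in anti-DJ1, 52.9 and 143 in IgG and 105 in non-injected embryos, against 3959 in donor cells. It was 49.1-fold lower in embryos (-5.62 ± 0.28, adjusted p = 2.56e-09), the largest difference among the tested members.

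Further genes of recycling were higher in embryos. SNX12, a small sorting nexin with a PX domain, had 1871 to 2915 in embryos, against 689 in donor cells (1.87 ± 0.14, adjusted p = 1.31e-07). SNX24, another of that kind, had 1788 to 2488 in embryos, against 553 in donor cells (2.08 ± 0.17, adjusted p = 1.91e-07). ARF6, which governs recycling at the cell surface, gave 1173 and 1452 in anti-DJ1, 1501 and 1722 in IgG and 1689 in non-injected embryos, against 556 in donor cells (1.36 ± 0.16, adjusted p = 5.32e-06). RAB35, a GTPase of fast recycling and of cell division, gave 629.9 and 694 in anti-DJ1, 528 and 799 in IgG and 919 in non-injected embryos, against 225 in donor cells (1.56 ± 0.20, adjusted p = 1.6e-05), and a second probe set of the gene was higher as well (3.26). In each of these genes all embryo arrays were above donor cells, as the rule that named them required. RAB15, a GTPase of recycling described mainly in neurons, gave 44.9 and 152 in anti-DJ1, 59.5 and 151 in IgG and 67.1 in non-injected embryos, against 3.64 in donor cells. Donor cells were under the highest Tag control of their array, 34.3 (fitted change 2.89 ± 0.52, adjusted p = 0.000269). Against that level, the mean of log2 signals over all embryo arrays was at least 2.44-fold higher. The trial 1 embryo arrays, at 44.9 to 67.1, lay nearer to it than the trial 2 arrays.

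SNX17, which returns receptors such as LRP1 from endosomes to the surface, depended on the probe set. The brighter probe set gave 1419.6 and 2074 in anti-DJ1, 1425 and 2577 in IgG and 1949 in non-injected embryos, against 222 in donor cells (2.81 ± 0.16, adjusted p = 9.5e-09). The second gave 78.5 and 151 in anti-DJ1, 90.9 and 101 in IgG and 55.1 in non-injected embryos, against 778 in donor cells (-3.33 ± 0.34, adjusted p = 2.15e-06), so the order of embryos and donor cells was the opposite. With the probe sets of each gene averaged, the change of SNX17 was -0.26.

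Several genes of retromer, the complex that retrieves receptors from endosomes, were lower in embryos. SNX1, one of its membrane-bending nexins, had a signal of 46.3 and 91.7 in anti-DJ1, 54.3 and 94.2 in IgG and 7.48 in non-injected embryos, against 339 in donor cells (-3.38 ± 0.46, adjusted p = 2.94e-05), and SNX5, another of them, gave 1851 to 2600.4 in embryos, against 5973 in donor cells (-1.39 ± 0.14, adjusted p = 1.81e-06). SNX3, a nexin that guides retromer to other cargo, gave 2568 and 2983 in anti-DJ1, 2358 and 3143 in IgG and 2442 in non-injected embryos, against 15065 in donor cells (-2.62 ± 0.13, adjusted p = 2.9e-09). VPS26B, a core subunit, gave 48.5 and 42.4 in anti-DJ1, 44.3 and 55.7 in IgG and 8.29 in non-injected embryos, against 317 in donor cells (-3.32 ± 0.54, adjusted p = 0.000129), and VPS29, another, was lower as deposited (-0.73) but not under every scaling. The embryo arrays did not overlap donor cells for SNX1, SNX3, SNX5, VPS26B or VPS29, which for SNX1, SNX3 and VPS26B was a condition of naming. VPS26B passed the filter on low values only through its donor signal. Without the non-injected array, on which SNX1 and VPS26B were under the highest Tag control, their changes were -2.65 and -2.66. With that array set to its Tag level, their embryo means of log2 signals were at least 5.35-fold and 6.69-fold below donor cells.

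For VPS26A and SNX6 the probe sets of the gene disagreed. The chosen probe set of VPS26A, the relative of VPS26B, was not called (629.8 to 771 in embryos, against 774 in donor cells; -0.09 ± 0.18, adjusted p = 0.654), while another was far lower in embryos, with 59.1 and 24.5 in anti-DJ1, 47.2 and 18.3 in IgG and 75.5 in non-injected embryos, against 8587 in donor cells (-7.06 ± 0.36, adjusted p = 3.04e-09). SNX6, a partner of SNX1, was higher by its chosen probe set (0.52 ± 0.17, adjusted p = 0.014) and lower by others (-0.86 and -3.67). The direction for either gene therefore depends on the probe set.

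Late endosome, lysosome and ESCRT genes were more often lower as deposited, but not under every scaling. Of 19 tested genes 4 were higher, 9 lower and 6 not called, against 36.4% higher and 36.5% lower of all probe sets tested. Under every scaling 4 were higher and 4 lower, against 35.9% and 26.4% of all probe sets tested. The group includes VPS72 by its prefix; without it, 3 of 18 were higher and 9 lower, and 3 were higher and 4 lower under every scaling. The group's median log2 change was -0.56 as deposited, 0.04 after quantile normalization and 0.07 at the common 75th percentile. RAB24, a GTPase linked to autophagy, had a signal of 45.8 and 53.5 in anti-DJ1, 45.7 and 62.6 in IgG and 79.1 in non-injected embryos, against 346 in donor cells (-2.55 ± 0.42, adjusted p = 0.000145). The ESCRT genes VPS4A, the ATPase that takes the complex apart, and VPS25, an ESCRT-II subunit, were lower (89.0 to 235 in embryos, against 501 in donor cells, and 165 to 389.8 in embryos, against 601 in donor cells; log2 changes -2.21 and -1.67). RAB9A, of transport from late endosomes to the Golgi, had a signal of 184 and 772 in anti-DJ1, 195 and 544 in IgG and 148 in non-injected embryos, against 554 in donor cells. It was lower in the fit (-1.64), but its trial 2 anti-DJ1 array was above donor cells, and the trial 2 embryos alone gave 0.22.

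RAB28, a GTPase with a role in cilia, was higher in embryos, with 9984 and 7386 in anti-DJ1, 10134 and 6748 in IgG and 14242 in non-injected embryos, against 3623 in donor cells (1.64 ± 0.12, adjusted p = 7.57e-08), and so was its second probe set (2.67). VPS39, a subunit of the HOPS tether of lysosomes, gave 139 and 259.9 in anti-DJ1, 160.1 and 246 in IgG and 109.5 in non-injected embryos, against 53.0 in donor cells (1.27 ± 0.31, adjusted p = 0.00249). Other subunits of that tether did not follow it: VPS11 and VPS18 were lower as deposited (-1.51 and -1.10), but neither call held under every scaling. VPS72, the chromatin factor that shares the prefix, gave 191 and 363 in anti-DJ1, 216 and 364 in IgG and 261 in non-injected embryos, against 55.5 in donor cells (1.91 ± 0.26, adjusted p = 2.73e-05). The second tested probe set of VPS72 was not called (-0.25 ± 0.52, adjusted p = 0.69). RAB7A, the main GTPase of late endosomes, was not called (-0.14 ± 0.14, adjusted p = 0.377).

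Of the 4 RAB effectors and regulators, RAB3GAP1 was called higher as deposited (0.31) and none held under every scaling. Among the 5 genes outside these groups, RAB19 was lower in embryos (-3.17 ± 0.47, adjusted p = 5.6e-05; -2.38 without the non-injected array), as was SEC14L1 (-1.59 ± 0.17, adjusted p = 3.87e-06). RAB40C was higher (0.46). RAB23, which restrains Hedgehog signalling, was not called by its chosen probe set (-0.18), and its others went opposite ways (1.81 and -0.79).

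**Figure D2:**
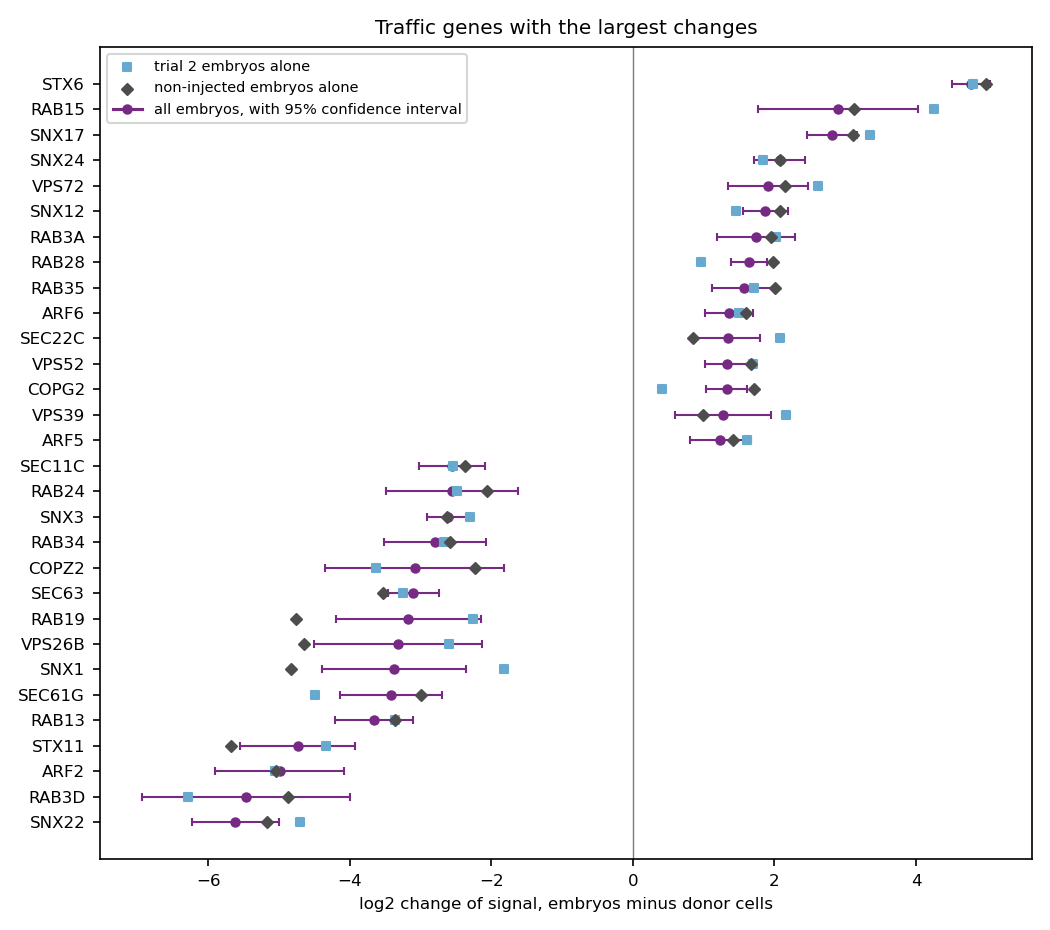
Log2 change of signal, embryos minus donor cells (horizontal axis), for the 30 members with the largest called changes, 15 in each direction; circles are all embryos with 95% confidence intervals, squares the trial 2 embryos alone and diamonds the non-injected embryos alone. STX6 (4.77) and SNX22 (-5.62) lie at the ends. Genes were shown only if all embryo arrays lay on one side of the donor array, and for every one the 3 symbols lie on the same side of 0.

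Across the members, second probe sets were a limit on the calls. A further 57 probe sets belonged to members and 33 were tested. Of the 23 that belonged to called members, 8 were called the same way, 4 the opposite way (RAB11B, SNX17 and SNX6 by 2 probe sets) and 11 were not called. Of the 10 that belonged to members not called, 6 were called, among them VPS26A and RAB1A (second probe set -2.86 ± 0.17, adjusted p = 1.41e-08).

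Close relatives with opposite calls were found in several families. RAB3A was higher and RAB3D lower in embryos, and ARF5, ARF6 and ARF1 were higher while ARF2 was lower by 1 of its 2 tested probe sets. These calls held under every scaling. In 3 further families, at least 1 of the opposite calls was lost under another scaling. SEC11A and SEC61B were higher while SEC11C and SEC61G were lower, as given above. RAB11A, the main GTPase of recycling endosomes, had 9379 and 9393 in anti-DJ1, 8317 and 10615 in IgG and 7711 in non-injected embryos, against 5176 in donor cells (0.71 ± 0.13, adjusted p = 0.000325), while RAB11B gave 400.0 and 671 in anti-DJ1, 381 and 599 in IgG and 593 in non-injected embryos, against 863 in donor cells (-0.94 ± 0.19, adjusted p = 0.000657). The second probe set of RAB11B was higher in embryos (1.87).

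**Figure D3:**
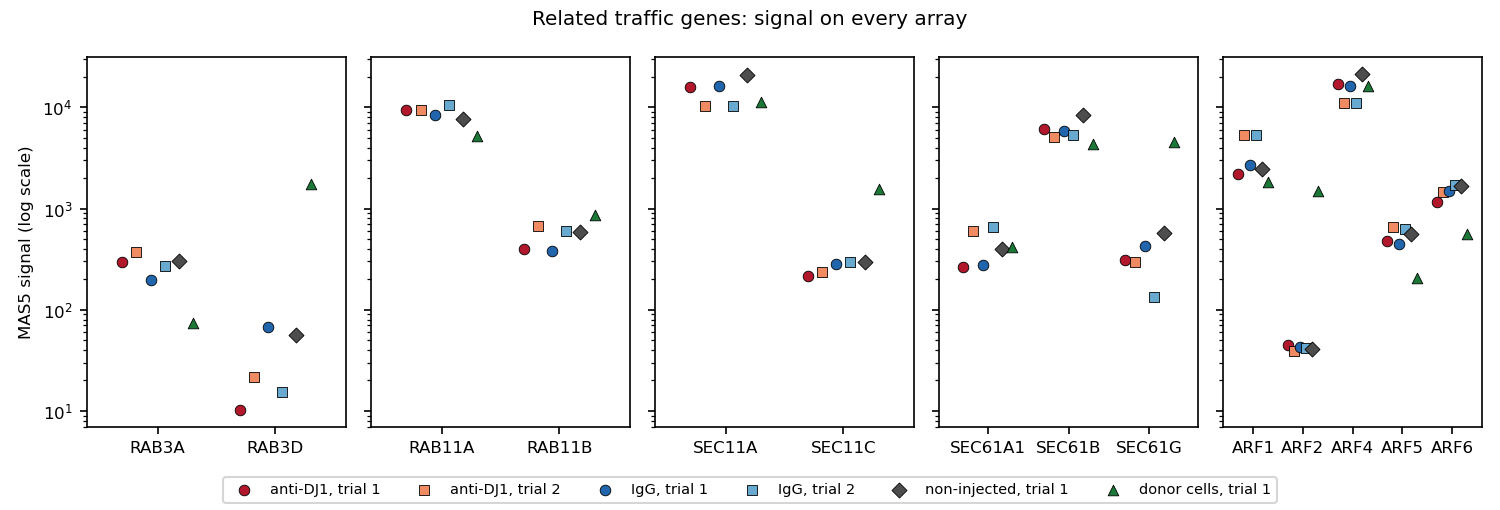
MAS5 signal on each of the 6 arrays (log axis) for related traffic genes, 1 panel per family and 1 symbol per array, to be compared between arrays within a gene and not between genes. For RAB3D, SEC11C, SEC61G and ARF2 the donor array lies far above all embryo arrays, while for RAB3A, RAB11A, ARF5 and ARF6 it lies below them.

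The anti-DJ1 and IgG embryos, the comparison at the centre of the study, gave no called difference in these genes. None of the 98 tested members was called in limma's test, against 0% of all probe sets tested, and the lowest adjusted p was 0.853. At an unadjusted p under 0.05 there were 4 members, against 5.82% of all probe sets. The log2 changes ran from -1.46 to 0.58, with a median of -0.04 against -0.0054 for all probe sets tested, and 42 of 98 were positive. The median absolute change was 0.12, against 0.16 for all probe sets. The 95% confidence interval of a member reached 1.31-fold to either side at the median, from 1.15-fold to 2.56-fold, so a difference inside that interval could not be shown here.

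The 6 members with the smallest unadjusted p are given as values. They were chosen by that p, so agreement of the trials and lack of overlap partly follow from the choice. The share of all probe sets with such agreement or lack of overlap is not given. RAB3A had a signal of 294 and 369 in anti-DJ1 pools, against 195 and 268 in IgG pools (log2 change 0.52 ± 0.22, adjusted p = 0.853), higher in anti-DJ1 embryos in both trials, and the groups did not overlap. ARF6 had 1173 and 1452 in anti-DJ1 pools, against 1501 and 1722 in IgG pools (-0.30 ± 0.13, adjusted p = 0.853), and RAB10 had 11715 and 9687 in anti-DJ1 pools, against 13739.6 and 10765 in IgG pools (-0.19 ± 0.10, adjusted p = 0.893). SEC11C had 214 and 234 in anti-DJ1 pools, against 280.2 and 295 in IgG pools (-0.36 ± 0.19, adjusted p = 0.896). By the chosen probe sets these 3 were lower in anti-DJ1 embryos in both trials, without overlap of the groups for ARF6 and SEC11C and with overlap for RAB10. The other tested probe sets of RAB10 differed in direction, with log2 changes of 0.17, -0.26 and -0.02.

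VPS18, a core subunit of the tethers of endosomes and lysosomes, had 179.7 and 139.8 in anti-DJ1 pools, against 88.8 and 122 in IgG pools (0.58 ± 0.26, adjusted p = 0.853), with both anti-DJ1 arrays above both IgG arrays. SNX11, a sorting nexin of endosomes, had 5.33 and 72.5 in anti-DJ1 pools, against 64.5 and 79.1 in IgG pools (-1.46 ± 0.62, adjusted p = 0.853). That difference rested on 1 array, the trial 1 anti-DJ1 array, where the signal was under the highest Tag control. The log2 ratio was -2.80 in trial 1 and -0.12 in trial 2, and without that array the fitted change was 0.020.

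The trials agreed in sign for 59 members, of which 20 were higher and 39 lower in anti-DJ1 embryos, and disagreed for 39. The signs were not counted over all probe sets, so this split cannot be read as a trait of the members. No member was at least 2-fold apart the same way in both trials, against 0.375% of all probe sets tested. In 1 or the other trial, 5 were at least 2-fold apart, also a count not taken over all probe sets. Besides SNX11 these were RAB3D (-2.29 in trial 1 and 0.38 in trial 2), RAB3IL1 (1.08 and -1.18), SEC61G (-0.45 and 1.13) and COPZ2 (0.23 and -1.13), named after their values were seen. Each of these 4 went opposite ways in the trials.

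**Figure D4:**
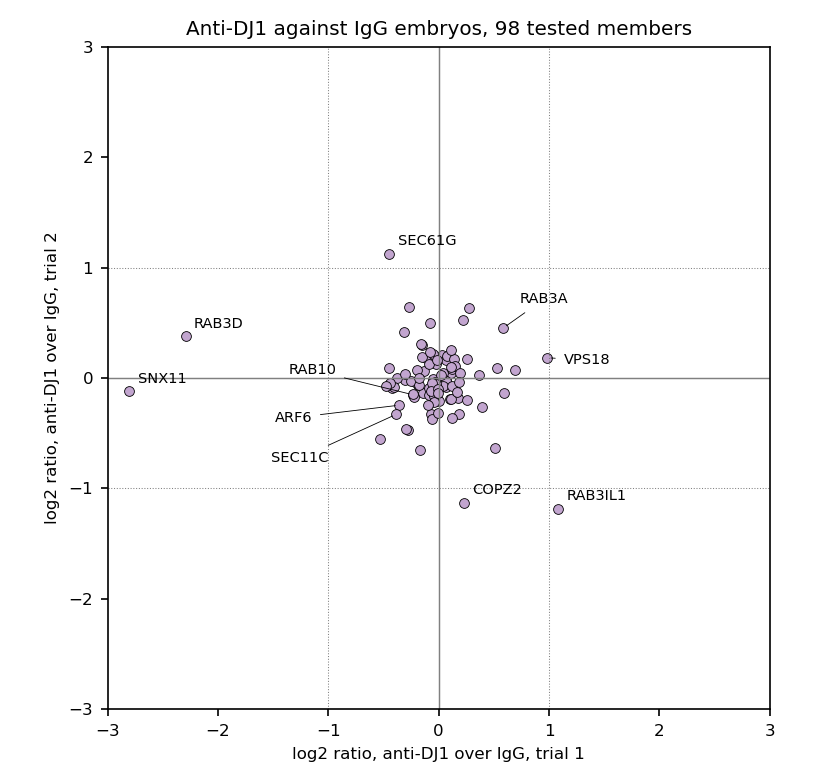
Log2 ratio of anti-DJ1 over IgG embryos in trial 1 (horizontal axis) and trial 2 (vertical axis) for the 98 tested members, 1 point per gene, with dotted lines at 2-fold. Most points gather near the origin, SNX11, RAB3D, RAB3IL1, SEC61G and COPZ2 lie outside the dotted lines in 1 or both trials, and no point lies beyond 2-fold in the same direction in both.

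Injected embryos were compared with non-injected embryos to see what injection itself did. Both comparisons share the single non-injected array, so their values are given side by side. In IgG minus non-injected embryos 1 of 98 members was called (1.02%), against 1.26% of all probe sets tested. None was higher, against 0.917%, and 1 was lower, against 0.347%. In anti-DJ1 minus non-injected embryos 1 was called (1.02%), against 1.92%, with 1 higher, against 1.26%, and none lower, against 0.653%. At an unadjusted p under 0.05 the counts were 23 members, against 17.3% of all probe sets, and 32 members, against 18.5%. The median log2 changes of members were -0.10 for IgG and -0.14 for anti-DJ1 embryos, against -0.0059 and -0.0078 for all probe sets tested.

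VPS18 was the member called in IgG embryos. Its signal was 179.7 and 139.8 in anti-DJ1 and 88.8 and 122 in IgG embryos, against 327 in non-injected embryos. All 4 injected arrays were lower, with log2 changes against the non-injected array of -1.05 ± 0.35, adjusted p = 0.139 in anti-DJ1 embryos and -1.63 ± 0.35, adjusted p = 0.0492 in IgG embryos. RAB19, whose function is little studied, was the member called in anti-DJ1 embryos, with a signal of 61.5 and 74.4 in anti-DJ1 and 63.8 and 63.3 in IgG embryos, against 8.30 in non-injected embryos. The changes were 2.43 ± 0.54, adjusted p = 0.046 in anti-DJ1 and 2.34 ± 0.54, adjusted p = 0.0594 in IgG embryos. The non-injected value was under that array's highest Tag control of 47.0, so injected embryos were at least 1.44-fold higher for anti-DJ1 and at least 1.35-fold for IgG. Both calls were lost under several alternative settings and whenever an injected array was left out without the trial block. Among second probe sets, that of COPB1 was also called higher in anti-DJ1 embryos. It gave 345 and 580 in anti-DJ1 and 337 and 533 in IgG embryos, against 159 in non-injected embryos (log2 changes 1.12 and 1.04). The chosen probe set of COPB1 gave -0.10 and -0.11.

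On the signals as listed, 6 members were at least 2-fold lower on the non-injected array than on all 4 injected arrays (6.12%), against 2.70% of all probe sets tested. They were RAB19, SNX1, VPS26B, STX11, SNX8 and RAB4B, the last an early endosome GTPase. Each was under the Tag level on the non-injected array, which had the highest Tag level of all arrays and the fewest members above it, 90 against 94 to 100 on the injected arrays. Set against that Tag level, none reached 2-fold. The bounds were at least 1.95-fold in anti-DJ1 and 1.85-fold in IgG embryos for RAB4B, 1.67-fold and 1.19-fold for SNX8, another endosomal nexin, 1.39-fold and 1.52-fold for SNX1, and 1.25-fold and 1.65-fold for STX11, while VPS26B had none in anti-DJ1 and 1.06-fold in IgG embryos. SNX8 had 77.7 and 79.0 in anti-DJ1 and 63.4 and 49.3 in IgG embryos, against 10.7 in non-injected embryos, and RAB4B had 77.6 and 109 in anti-DJ1 and 57.9 and 131 in IgG embryos, against 16.6 in non-injected embryos. Without the 2-fold limit, the non-injected array was below all injected arrays in 25 members (25.5%, against 26.3% of all probe sets) and above them in 21 (21.4%, against 19.9%).

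**Figure D5:**
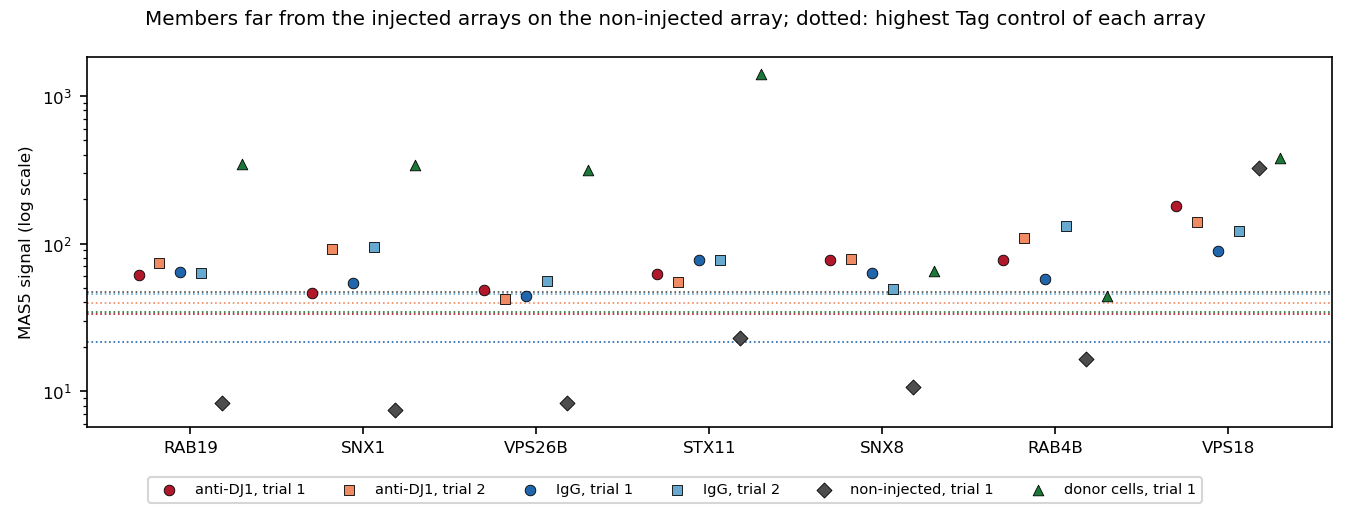
MAS5 signal on each array (log axis) for the 6 members listed at least 2-fold lower on the non-injected array than on all injected arrays, and for VPS18, which was higher there; dotted lines mark the highest Tag control of each array. The non-injected values of RAB19, SNX1, VPS26B, STX11, SNX8 and RAB4B all lie under that array's line at 47.0, while VPS18 lies above it at 327.

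The trials themselves separated the embryo arrays. Both trial 2 arrays were above all 3 trial 1 embryo arrays in 44 members (44.9%), against 33.9% of all probe sets tested, and below them in 19 (19.4%), against 20.2%. The median log2 difference of trial 2 minus trial 1 was 0.30 for members and 0.14 for all probe sets. Of the members, 15 were at least 2-fold apart, 14 of them higher in trial 2, counts that were not taken over all probe sets. Of the 14, SEC13 (1.77), RAB9A (1.75), RAB15 (1.47) and VPS28 (1.40), an ESCRT-I subunit, differed most among those above the highest Tag control on all embryo arrays. RAB8A, a GTPase of surface traffic and of cilia, was the 1 lower (-1.27). The EF1A ratio differed between the same arrays, as given above.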

How the data were processed

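RNA of 6 pig samples was hybridised, 1 sample each, to Affymetrix porcine arrays after labelling of 50 ng of total RNA per the labels' protocols. The authors deposited 1 table of 24123 probe set signal intensities on a linear scale, made with MAS5 per the submitters' processing notes; the sources used here give neither its settings nor its detection calls. After 124 control probe sets were left out, 10069 of 23999 had a single gene symbol in the platform annotation, which can be old, 198 several and 13732 none. Of the members, 102 matched a RefSeq gene by identifier (all but RAB19).

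Signals were kept as deposited and set to log2(signal + 4.57), the 10th percentile of all signals, so changes of dim genes are understated. The 14399 probe sets in the upper 60% by mean were tested with limma 3.58.1 (R 4.3.3; lmFit, eBayes with trend, two-sided) over the 6 arrays in a model of group plus trial, Benjamini-Hochberg adjustment over all of them and a threshold of 0.05. The mean used for the filter included the donor array. Genes dim in embryos could thus pass through their donor signal, among them RAB3D, COPZ2, VPS26B and KDELR3. Their calls against donor cells are not independent of the filter. There was 1 residual degree of freedom, and moderation added 10.7. Single arrays (non-injected, donor cells) were assumed to vary like the replicated ones. Replicates were biologically different samples per the labels, with precision limited by their number. The trial block follows the design, in which the IgG pool served as control within its own trial. As a check of this pairing, the 2 injected arrays of a trial deviated together from the means of their groups (r = 0.588 over probe sets, not independent values).

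A lower bound ("at least") was set where a group lay under the highest of 17 Tag controls, against that level. Where only some arrays did, those were set to it. Each bound is for the mean of log2 signals over a group's arrays, without pseudocount, trial block or confidence interval. Single arrays can thus lie nearer, and a fitted fold can be smaller than the bound. Named genes were those called in the comparisons with non-injected embryos, the 6 smallest unadjusted p in anti-DJ1 against IgG, up to 15 per direction against donor cells with all embryo arrays on one side, the genes with the highest signal of each role group, relatives called in opposite directions, and up to 3 per further list. Other genes are named as further subunits or relatives of these, after their values were seen. For the genes named by the largest changes against donor cells, non-overlap with the donor array was a condition of naming. Its share over all probe sets was not counted. Members, lists and roles were chosen with earlier results of these data known. Alternatives were other scalings, pseudocounts, filters, no trial block, no trend, averaged probe sets and arrays left out. The fit was tested on simulated data. Sequences were not used here.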

Additional observations from a re-analysis of the deposited data

How the results depend on the processing

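Counts of members under the alternatives are given without the share of all probe sets, so a change in count cannot be read as a trait of the members. No member was called in anti-DJ1 against IgG embryos under any of the alternatives run. IgG against non-injected embryos, with 1 called member, had 4 at a common 75th percentile, 3 with a pseudocount at the 25th percentile, 8 in the upper 40% of probe sets, and 0 with no pseudocount, no filter, no replicate block, no trend, or probe sets averaged; leaving out an injected array gave 0 to 0. Anti-DJ1 against non-injected embryos, also with 1, had 3 at the common percentile, 2 with the larger pseudocount, 7 in the upper 40% (not RAB19), and 0 with no filter, no replicate block, no trend or averaged probe sets; leaving out an injected array gave 0 to 0. Against donor cells, 68 members were called, 36 with no replicate block (16 higher and 20 lower, all among the 68) and 35 to 39 when an injected array was left out (37 without the trial 2 anti-DJ1 array), fits that also drop the block; all other alternatives gave 55 to 73. The replicate block changed the call of VPS18 and RAB19 (adjusted p 0.994 and 0.961 without it) and, among the 30 genes named against donor cells, of COPG2 (0.0793) and VPS39 (0.0516). The fits without the non-injected array and with trial 2 embryos alone were chosen after seeing the data. For those 30 genes, 457 of 467 values kept direction and call, 9 lost the call and 1 reversed (SNX17, -0.26 with probe sets averaged). SNX11 in anti-DJ1 against IgG embryos ran from -2.94 to 0.020 over the left-out arrays (0.020 without the trial 1 anti-DJ1 array). VPS18 lost its call in 9 of 13 values and RAB19 in 7 of 11. Leave-one-out fits have fewer samples; other causes of lost calls were not tested. Low signal limits RAB3D, ARF2, COPZ2 and the 6 genes under the Tag level on the non-injected array.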

Other observations

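Traffic genes outside the symbol rule, in 4 lists of tethers and SNAREs, RAB and ARF regulators, coats and cargo receptors, and ESCRT and lysosome genes, were also compared between embryos and donor cells. Of all probe sets tested, 36.4% were called higher and 36.5% lower in embryos as deposited, 43.4% and 29.3% after quantile normalization, and 46.6% and 27.2% at a common 75th percentile. Of 33 tested coat, cargo receptor and adaptor genes, 7 were higher and 17 lower in embryos as deposited, 8 and 18 after quantile normalization, and 13 and 12 at the common percentile. TMED2, a cargo receptor of the p24 family, had a signal of 71.7 and 35.5 in anti-DJ1, 71.2 and 12.1 in IgG and 71.2 in non-injected embryos, against 18511 in donor cells (log2 change -7.93 ± 0.38, adjusted p = 1.94e-09, limma, ± SE). KDELR3, a receptor that returns ER proteins from the Golgi, gave 31.9 and 36.9 in anti-DJ1, 34.4 and 63.1 in IgG and 24.0 in non-injected embryos, against 4597 in donor cells (-7.06 ± 0.41, adjusted p = 1.03e-08), and ERGIC1, a protein of the compartment between ER and Golgi, gave 34.4 to 100.4 in embryos, against 2635 in donor cells (-5.22 ± 0.34, adjusted p = 3.27e-08). The embryo arrays were far below donor cells for all 3. KDELR3 passed the filter on low values only through its donor signal. Embryo arrays under the highest Tag control numbered 2 of 5 for TMED2, 3 for KDELR3 and 1 for ERGIC1. With those arrays set to that level, the embryo means of log2 signals were at least 319-fold, 109-fold and 44.4-fold below donor cells.

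Of 19 tested ESCRT and lysosome genes, 5 were higher and 12 lower as deposited, and 6 and 8 at the common percentile. The lysosomal membrane genes LAMP2 and CD63 gave 98.9 to 216 in embryos, against 7591 in donor cells, and 209.9 to 283 in embryos, against 4255 in donor cells (log2 changes -5.41 and -4.26), and LAMTOR2, which anchors nutrient signalling to lysosomes, gave 5.90 to 58.2 in embryos, against 418 in donor cells (-3.80; at least 9.04-fold lower with the 2 embryo arrays under the Tag level set to it). Of 19 RAB and ARF regulators, 5 were higher and 11 lower as deposited, and 6 and 5 at the common percentile. RABAC1, a membrane receptor of prenylated RABs, gave 10.5 to 108 in embryos, against 1367 in donor cells (-6.04; at least 26.5-fold lower with the 3 such arrays set likewise), RABGGTB, a subunit of the enzyme that prenylates RABs, gave 656 to 773 in embryos, against 2999 in donor cells (-1.99), and RABGAP1, which switches RABs off, gave 552 to 759 in embryos, against 54.1 in donor cells (3.56). Of 29 tethers and SNAREs, 8 were higher and 10 lower as deposited, and 11 and 7 at the common percentile. The exocyst subunit EXOC8 (-4.74), the SNARE VAMP8 (-3.37) and the tether subunit TRAPPC13 (-2.54) had the largest fitted changes among those called, with VAMP8 under the Tag level on 1 embryo array.

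No gene of the 4 lists was called in anti-DJ1 against IgG embryos or in IgG against non-injected embryos. In all, 2 were called in anti-DJ1 against non-injected embryos. ARFIP1, which binds ARF GTPases, was lower, with 14044 and 9386 in anti-DJ1 and 15943 and 11465 in IgG embryos, against 22104 in non-injected embryos (-0.68 ± 0.13, adjusted p = 0.0261), and CLTC, the clathrin heavy chain, was higher, with 4547 and 3149 in anti-DJ1 and 4153 and 3157 in IgG embryos, against 2681 in non-injected embryos (0.73 ± 0.15, adjusted p = 0.0342).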
